A study of Homo sapiens with 2 samples.

Results

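The genes described here are those of the S100 and annexin families on 2 expression arrays of the hepatocellular carcinoma cell line PLC8024. They were taken as the probe sets whose platform annotation gives exactly 1 symbol and that symbol starts with S100 or ANXA. The rule found 55 of 54613 non-control probe sets, which cover 38 of 19775 genes, 21 with an S100 symbol on 28 probe sets and 17 with an ANXA symbol on 27. The S100 symbols include S100PBP, which encodes a protein that binds S100P and is not itself an S100 protein. The ANXA symbols include the pseudogenes ANXA2P1, ANXA2P2 and ANXA2P3, the gene ANXA2R, annotated as an ANXA2 receptor, and the non-coding neighbours ANXA2R-AS1 and ANXA2R-OT1, which leaves 20 S100 genes and 11 annexin genes proper. A further 3 probe sets carry an ANXA2 or ANXA8 symbol together with another symbol and were not counted.

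The miR-130b cells were PLC8024 cells sorted by flow cytometry as lacking CD133 and given the microRNA miR-130b by lentiviral transduction, and the empty vector cells were cells of that sort given the empty lentiviral vector. PROM1 encodes CD133, a cell surface glycoprotein by which tumour-initiating liver cells are sorted. Each condition had 1 array, so no difference below was tested and none has a replicate error. Any other difference between the cells of the 2 conditions cannot be told apart from that of the microRNA. Fewer cells expressing a gene cannot be told apart from less RNA per cell. One established line was used, and the labels do not say how many cultures or passages stand behind each RNA sample.

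S100 proteins are small calcium sensors of the EF-hand type. On binding calcium most of them open a hydrophobic face that docks on other proteins, and several are also released from cells. Annexins bind acidic membrane phospholipids when calcium rises, and they take part in membrane trafficking, repair and links to the actin cytoskeleton. The families meet in complexes in which an S100 dimer holds the amino-terminal tail of an annexin on each side: S100A10 with ANXA2, and S100A11 with ANXA1. S100A10 is unusual in having lost calcium binding, and it holds ANXA2 without it.

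The overexpressed microRNA is the agent of the comparison, and its sequence is shown for that reason. Its mature strands, from RefSeq on GRCh38.p14, lie at chr22:21653354-21653375, plus strand, and chr22:21653316-21653336, plus strand. Capitals mark the seed, bases 2 to 8, with which a microRNA pairs to its targets. The 6 mature human microRNAs with the seed of the 3p strand in the RefSeq table include miR-130b-3p itself, miR-301a-3p, miR-301b-3p and miR-454-3p.
hsa-miR-130b-3p: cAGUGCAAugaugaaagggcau
hsa-miR-130b-5p: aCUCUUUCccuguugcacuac
Transcript sequences of the S100 and annexin genes were not used here, so matches to this seed were not searched.

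Values are log2 RMA levels as deposited, and a difference is the miR-130b level minus the empty vector level. A probe set was called measured when its brighter array reached 4.88, the median over both arrays of the non-control probe sets, and a gene took the value of whichever of its measured probe sets had the highest mean. In all, 40 of the 55 probe sets and 29 of the 38 genes were measured, 14 with an S100 symbol and 15 with an ANXA symbol. Over 6047 genes with several measured probe sets, the pooled SD between the differences of a gene's probe sets was 0.20 (log2). It is a technical spread and holds no variation between cultures. Levels of different genes come from different probes and were not ranked against each other.

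The arrays had a Pearson correlation of 0.993 over the non-control probe sets, and the median difference of the 13260 measured genes was 0.03. Of the hepatocyte markers all 15 on the array were measured, with a median level of 12.95 in miR-130b cells and 13.22 in empty vector cells. Of the leukocyte, keratinocyte, and stromal and endothelial markers, 3 of 8, 1 of 6 and 6 of 9 were measured. Over all markers of these lists on the array, measured or not, the median levels were 4.66, 4.27 and 5.36 in miR-130b cells and 4.64, 4.16 and 5.44 in empty vector cells. The highest members were LYZ, KRT10 and PECAM1, at 9.46, 11.29 and 8.72 in miR-130b cells and at 9.77, 11.18 and 8.51 in empty vector cells. The sort marker PROM1 stood at 6.07 in miR-130b cells and at 9.19 in empty vector cells. It was above the floor in both, although the cells of both conditions came from CD133- sorts. PROM1 was thus lower in miR-130b cells, and its part in the S100 and annexin values was not tested. The 3′ to 5′ ratio of the ACTB control probe sets was 2.41 in miR-130b cells and 1.95 in empty vector cells, and its part in the differences below was not tested.

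**Figure D1:**
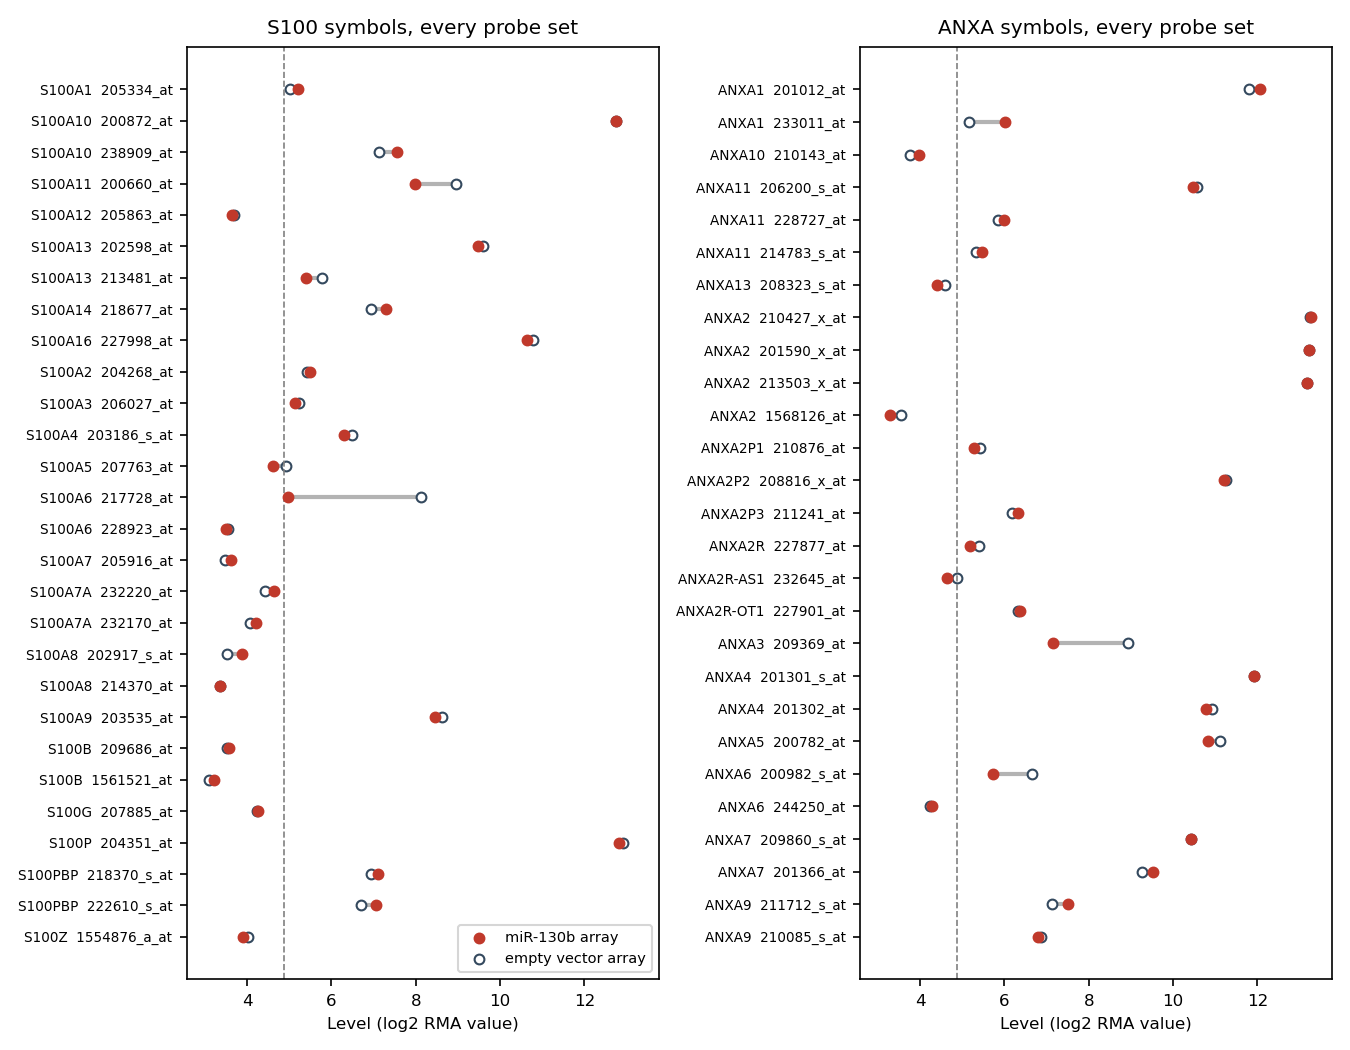
Log2 RMA level of every S100 (left) and ANXA (right) probe set in miR-130b cells (filled red) and empty vector cells (open), with a grey bar joining the arrays and the floor of 4.88 dashed. The long bars belong to S100A6, ANXA3, S100A11, ANXA6 and the dimmer ANXA1 probe set, and most other pairs of points nearly coincide.

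Of the 29 measured genes, 4 were at least 1.5-fold lower in miR-130b cells and 0 were at least 1.5-fold higher. Of all 13260 measured genes, 2.68% were at least 1.5-fold lower and 0.294% were at least 1.5-fold higher. The 4 were S100A6, S100A11, ANXA3 and ANXA6, 2 from each family, and they make up 13.8% of the measured members. The other 25 lay between S100A5 at -0.29 and ANXA9 at 0.38 on the log2 scale. None of these stood near the 1.5-fold line of 0.58 in the probe set that represents the gene. A dimmer ANXA1 probe set passed that line at 0.86, and ANXA1 stood at 0.57 when its probe sets were averaged. Of all 29, 18 differed by less than the technical SD of 0.20. Each of the 4 lower genes rests on 1 measured probe set, so none has a second measured probe set to set beside it. These are counts on 2 arrays, with no test. Of the stromal and endothelial markers, 1 was also at least 1.5-fold lower, COL1A2 with a difference of -3.08, as were 2 of 15 hepatocyte markers, TTR and ALB, and their part in the S100 and annexin values was not tested.

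S100A6, also called calcyclin, is an S100 protein of proliferating and migrating cells that binds CACYBP and several annexins. Its measured probe set stood at 4.96 in miR-130b cells against 8.12 in empty vector cells. The difference of -3.16 is 8.92-fold lower and was the 17th lowest of the 13260 measured genes. The level in miR-130b cells lay just above the floor, where the remaining background compresses a fold. A second S100A6 probe set stood below the floor at 3.50 in miR-130b cells and 3.55 in empty vector cells, and it gives no measured difference.

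S100A11, the S100 partner of ANXA1, stood at 7.99 in miR-130b cells and at 8.95 in empty vector cells. Its difference of -0.96 is 1.95-fold lower. No other probe set has S100A11 as its single symbol, and its level lay well above the floor in both arrays.

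ANXA3, an annexin studied in liver tumour-initiating cells, stood at 7.15 in miR-130b cells and at 8.92 in empty vector cells. Its difference of -1.78, 3.42-fold lower, was the lowest among the annexins and the 84th lowest of all measured genes. ANXA6, an annexin with a duplicated core that acts in endocytosis and cholesterol handling, stood at 5.72 in miR-130b cells and at 6.65 in empty vector cells. That difference of -0.93 is 1.91-fold lower, and both ANXA6 levels were low, below the alternative floor of 6.98 at the 75th percentile. A further ANXA6 probe set lay below the floor in both arrays, at 4.30 in miR-130b cells and 4.25 in empty vector cells. The ANXA6 probe set that was measured carries the suffix _s_at, which marks probes shared by several transcripts.

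The upstream windows of the 4 genes are shown because these genes stood together at least 1.5-fold lower in miR-130b cells. Each runs over the 250 bases before the RefSeq transcription start on GRCh38.p14, read 5′ to 3′ on the gene's strand. They lie at chr1:153535992-153536241, minus strand, for S100A6, at chr1:152037005-152037254, minus strand, for S100A11, at chr4:78551520-78551769, plus strand, for ANXA3, and at chr5:151157780-151158029, minus strand, for the outermost ANXA6 start. Capitals mark matches on either strand to any of 6 motifs, which are TATAAA for the TATA box, GGGCGG for the GC box, CCAAT for the CCAAT box, TGANTCA for the AP-1 site, GGAATG for the TEAD site and GGAAGT for the ETS site.
S100A6: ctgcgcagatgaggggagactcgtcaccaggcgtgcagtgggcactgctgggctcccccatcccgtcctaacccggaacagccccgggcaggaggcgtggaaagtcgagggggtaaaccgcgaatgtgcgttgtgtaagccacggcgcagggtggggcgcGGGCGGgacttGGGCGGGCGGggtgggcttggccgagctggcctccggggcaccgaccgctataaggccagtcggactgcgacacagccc
S100A11: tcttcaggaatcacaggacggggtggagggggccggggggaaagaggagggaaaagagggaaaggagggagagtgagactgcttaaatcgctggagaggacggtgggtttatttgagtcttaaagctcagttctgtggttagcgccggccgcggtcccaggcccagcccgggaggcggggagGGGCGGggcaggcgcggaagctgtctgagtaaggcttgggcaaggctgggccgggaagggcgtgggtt
ANXA3: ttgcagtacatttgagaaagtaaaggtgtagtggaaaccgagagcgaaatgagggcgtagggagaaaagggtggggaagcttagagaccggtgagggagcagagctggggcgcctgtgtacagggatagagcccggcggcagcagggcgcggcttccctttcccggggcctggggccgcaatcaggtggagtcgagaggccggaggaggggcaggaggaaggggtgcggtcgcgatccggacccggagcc
ANXA6: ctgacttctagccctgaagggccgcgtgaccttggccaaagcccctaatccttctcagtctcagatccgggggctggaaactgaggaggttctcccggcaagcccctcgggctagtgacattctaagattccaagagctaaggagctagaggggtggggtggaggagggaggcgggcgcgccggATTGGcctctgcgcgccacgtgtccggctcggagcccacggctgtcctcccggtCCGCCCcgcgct
None of these 4 windows held a TATA box, an AP-1, a TEAD or an ETS site in these spellings. S100A6 held 3 GC boxes, the nearer pair overlapping, S100A11 held 1 and ANXA6 held 1 beside 1 CCAAT box, while ANXA3 held no match to any of the 6 motifs. Across 34943 upstream windows of the same length, the GC box stood in 42.5%, the CCAAT box in 32.0%, the ETS site in 19.5%, the TEAD site in 11.9%, the TATA box in 10.8% and the AP-1 site in 6.59%. A match is a description of the letters and was not tied to the measured levels.

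**Figure D2:**
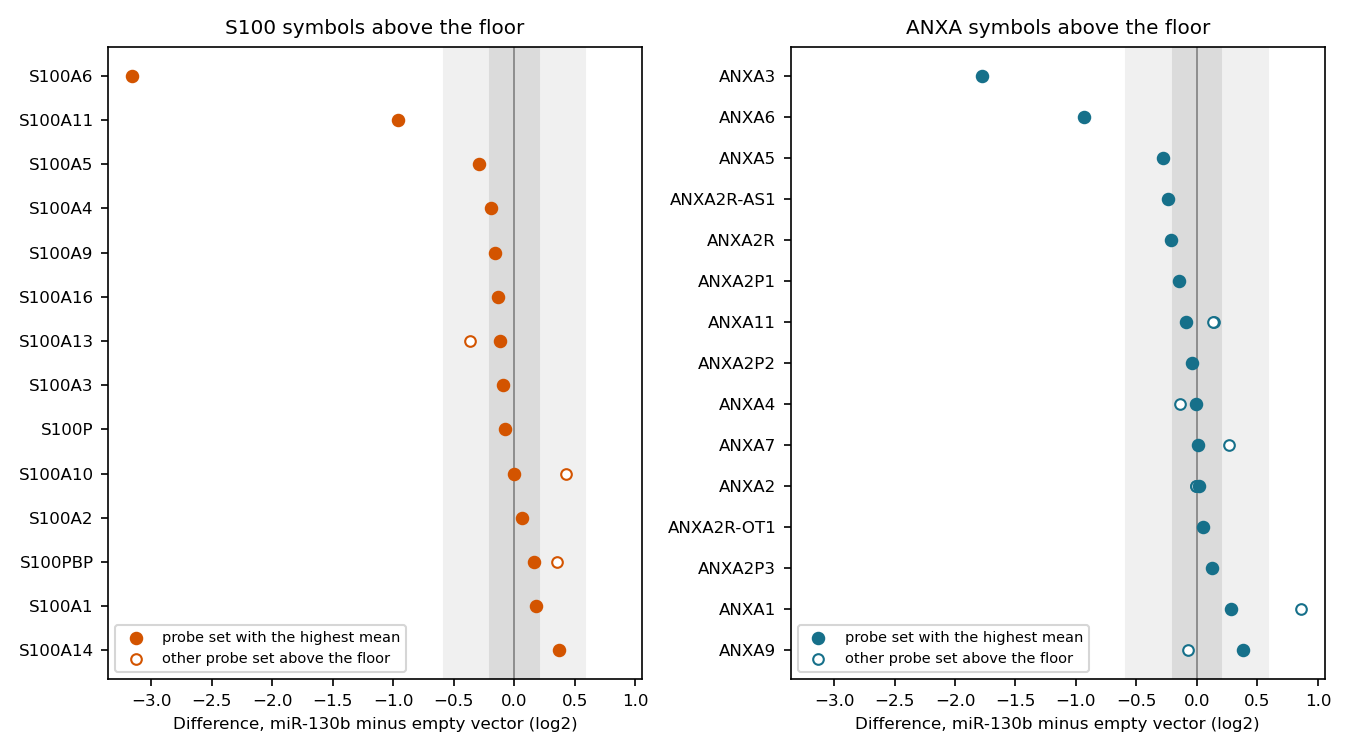
Log2 difference, miR-130b minus empty vector, of each measured S100 (left) and ANXA (right) probe set, ordered by the probe set that represents the gene (filled), with other measured probe sets open. The dark band is the technical SD of 0.20 on either side of 0 and the light band is 1.5-fold, and S100A6, S100A11, ANXA3 and ANXA6 lie to its left.

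The S100A10 and ANXA2 pair, which forms the membrane-bound complex known as a plasminogen receptor, showed nearly equal levels in the arrays. The representative S100A10 probe set stood at 12.75 in miR-130b cells and at 12.76 in empty vector cells, a difference of -0.01. A dimmer S100A10 probe set stood at 7.56 in miR-130b cells and at 7.13 in empty vector cells, a difference of 0.43, so the probe sets of S100A10 do not tell the same difference. ANXA2 had 3 measured probe sets, at 13.26, 13.21 and 13.18 in miR-130b cells and at 13.24, 13.22 and 13.18 in empty vector cells. Their differences were 0.02, -0.01 and 0.00, all below the technical SD. All 3 carry the suffix _x_at, which marks probes that may also bind related transcripts, and the only ANXA2 probe set without a suffix stood below the floor, at 3.29 in miR-130b cells and 3.54 in empty vector cells. The pseudogene probe set of ANXA2P2, also with that suffix, stood at 11.21 in miR-130b cells and 11.26 in empty vector cells, so signal of ANXA2 and its pseudogene cannot be told apart. Few genes as bright as this pair differed: of 271 genes with a mean level of 12 or above, 1 was at least 1.5-fold lower, 0 were higher, and a compression of bright probe sets was not tested.

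The S100A11 and ANXA1 pair, by contrast, stood on opposite sides of 0 with each difference larger than the technical SD. ANXA1, a phospholipid-binding protein known for limiting inflammation and as a substrate of growth factor receptor kinases, stood at 12.07 in miR-130b cells and at 11.79 in empty vector cells. That difference of 0.28 is larger than the technical SD and short of 1.5-fold. A dimmer ANXA1 probe set stood at 6.02 in miR-130b cells and at 5.16 in empty vector cells, a difference of 0.86 or 1.81-fold higher. Both ANXA1 probe sets were therefore higher in miR-130b cells, while the S100A11 probe set was lower. The S100A11 difference minus the ANXA1 difference was -1.24, which is 2.37-fold, whereas for S100A10 minus ANXA2 it was -0.02. The technical SD of such a gap between 2 genes is 0.29. In the probe sets that represent the genes, the first gap is larger than this spread and the second is well inside it. With a gene's measured probe sets averaged, the gaps were -1.53 and 0.21.

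**Figure D3:**
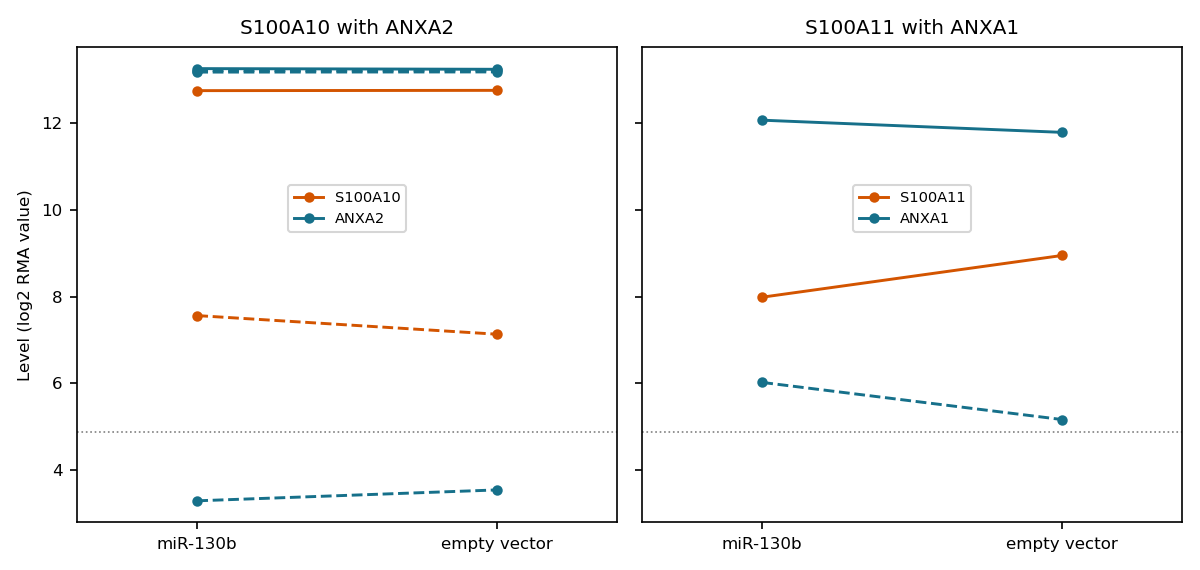
Log2 RMA levels of S100A10 and ANXA2 (left) and of S100A11 and ANXA1 (right) in miR-130b and empty vector cells, with a line for each probe set, solid for the one that represents the gene, and the floor of 4.88 dotted. The solid lines of S100A10 and ANXA2 are flat, while S100A11 is lower in miR-130b cells (7.99 against 8.95) and ANXA1 is higher (12.07 against 11.79).

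The upstream windows of the other partner genes are shown beside those 4, since S100A10, ANXA2 and ANXA1 stood within 1.5-fold between the arrays. They lie at chr1:151993860-151994109, minus strand, for S100A10, at chr15:60397987-60398236, minus strand, for ANXA2, and at chr9:73151615-73151864, plus strand, for ANXA1.
S100A10: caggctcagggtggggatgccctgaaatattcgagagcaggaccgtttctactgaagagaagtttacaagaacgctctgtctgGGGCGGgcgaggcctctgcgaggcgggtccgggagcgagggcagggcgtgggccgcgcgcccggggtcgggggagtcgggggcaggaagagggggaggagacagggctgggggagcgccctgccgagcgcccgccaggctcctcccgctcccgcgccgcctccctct
ANXA2: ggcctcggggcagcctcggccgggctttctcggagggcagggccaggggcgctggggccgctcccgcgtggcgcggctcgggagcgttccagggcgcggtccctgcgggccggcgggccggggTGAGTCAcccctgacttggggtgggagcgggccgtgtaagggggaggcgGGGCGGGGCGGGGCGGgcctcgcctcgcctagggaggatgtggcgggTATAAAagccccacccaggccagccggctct
ANXA1: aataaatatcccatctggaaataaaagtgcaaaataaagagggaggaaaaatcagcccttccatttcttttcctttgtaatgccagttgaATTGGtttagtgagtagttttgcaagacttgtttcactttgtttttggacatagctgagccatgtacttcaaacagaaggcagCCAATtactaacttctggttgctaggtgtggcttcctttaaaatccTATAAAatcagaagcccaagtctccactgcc
S100A10 held 1 GC box. ANXA2 held 3 GC boxes, each overlapping the next, 1 AP-1 site and 1 TATA box whose first base lay 31 bases before the start. ANXA1 also held a TATA box 31 bases before its start, together with 2 CCAAT matches and no GC box. ANXA1 stood apart in base composition, with 38.4% G and C and 0 CpG steps, against 78.0% and 28 in ANXA2 and a median of 58.0% and 11 over all windows. The 4 lower genes ranged from 63.6% to 70.0% G and C with 15 to 24 CpG steps, and S100A10 had 71.2% and 24.

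The remaining measured S100 genes differed by at most 0.37 on the log2 scale in the probe set that represents them. S100P, which activates the receptor AGER and binds ezrin, stood at 12.83 in miR-130b cells and at 12.91 in empty vector cells. S100A16 stood at 10.65 in miR-130b cells against 10.78 in empty vector cells. S100A13, which takes part in the export of FGF1, stood at 9.48 in miR-130b cells against 9.61 in empty vector cells, with -0.37 in its dimmer probe set. All 3 differed by less than the technical SD in that probe set.

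S100A4, a protein tied to cell motility and metastasis, stood at 6.30 in miR-130b cells and at 6.49 in empty vector cells, a difference of -0.19. S100A14, an epithelial S100 protein, had the highest difference of the S100 symbols, 0.37, at 7.30 in miR-130b cells and 6.94 in empty vector cells. S100A2, known from basal epithelial cells, and S100A3, known from hair cuticle, stood at 5.49 and 5.14 in miR-130b cells and at 5.43 and 5.24 in empty vector cells. S100A1, known from heart muscle, stood at 5.21 in miR-130b cells and 5.03 in empty vector cells. S100A5, known from olfactory neurons, was above the floor only in empty vector cells, at 4.91, with 4.62 in miR-130b cells. S100PBP stood at 7.10 in miR-130b cells and 6.93 in empty vector cells, a difference of 0.16, and its other probe set differed by 0.36.

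The members known from other tissues were mostly below the floor. Of the calprotectin subunits, which neutrophils carry as a complex, S100A9 was measured at 8.46 in miR-130b cells and 8.62 in empty vector cells. Its partner S100A8 lay below the floor in both probe sets, at 3.88 and 3.37 in miR-130b cells and at 3.52 and 3.37 in empty vector cells. S100A12 of neutrophils, S100A7 and S100A7A of inflamed skin, S100B of glia and melanocytes, S100G of the gut and S100Z were also below the floor, which makes 7 S100 genes in all. Their levels ran from 3.23 to 4.64 in miR-130b cells and from 3.09 to 4.44 in empty vector cells. Of S100A8, S100A9 and S100A12, S100A9 alone was above the floor, and among the leukocyte markers LYZ, ITGAM and MPO were. LYZ stood at 9.46 in miR-130b cells and 9.77 in empty vector cells. A dimmer LYZ probe set stood at 4.04 in miR-130b cells and 5.76 in empty vector cells, a difference of -1.72. It was above the floor only in empty vector cells, which fixes the sign of that difference.

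ANXA4, ANXA7 and ANXA11 differed by less than the technical SD in the probe set that represents them, and ANXA5 by more. ANXA5, the phosphatidylserine-binding protein used to stain dying cells, stood at 10.83 in miR-130b cells and at 11.11 in empty vector cells, a difference of -0.28. ANXA4, an annexin of epithelia, stood at 11.91 in miR-130b cells and at 11.92 in empty vector cells, with a difference of -0.14 in its dimmer probe set. ANXA7 stood at 10.42 in both arrays, with a difference of 0.26 in its dimmer probe set. ANXA11, which tethers RNA granules to lysosomes, stood at 10.47 in miR-130b cells and 10.56 in empty vector cells, and its 2 dimmer probe sets differed by 0.14.

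ANXA9, an atypical annexin, had the highest difference of the 29 representative probe sets, 0.38, at 7.51 in miR-130b cells and 7.13 in empty vector cells. Its other probe set differed by -0.08, so the ANXA9 value rests on which probe set is read. ANXA10, known from stomach, and ANXA13, known from gut epithelium, lay below the floor in both arrays, at 3.98 and 4.41 in miR-130b cells and at 3.76 and 4.60 in empty vector cells. ANXA2R stood at 5.19 in miR-130b cells and 5.41 in empty vector cells. Its antisense neighbour ANXA2R-AS1 reached the floor only in empty vector cells, with 4.64 in miR-130b cells and 4.88 in empty vector cells, and ANXA2R-OT1 stood at 6.37 in miR-130b cells and 6.32 in empty vector cells. The pseudogenes ANXA2P1 and ANXA2P3 stood at 5.27 and 6.32 in miR-130b cells and at 5.42 and 6.19 in empty vector cells, so all 5 of these symbols lay within 1.5-fold. The uncounted probe sets with several symbols also did, with 0.12 and 0.21 for ANXA8 with ANXA8L1 and -0.12 for ANXA2 with SNU13.

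Between the families, the median difference was -0.11 for the 14 S100 symbols and -0.04 for the 15 ANXA symbols, against 0.03 for all measured genes. The order of the family medians turned with the processing: the S100 median minus the ANXA median was -0.06, but 0.0037 with no floor and 0.03 without _x_at and _s_at probe sets. S100A5 and ANXA2R-AS1 count as measured only through empty vector cells, which fixes the sign of their differences, so the medians are given as descriptions. Among the 13 S100 genes and 9 annexin genes proper that were measured, the medians were -0.12 and -0.01. Of the 9 members with 2 or more measured probe sets, 4 had probe sets on both sides of 0, namely S100A10, ANXA2, ANXA9 and ANXA11.

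**Figure D4:**
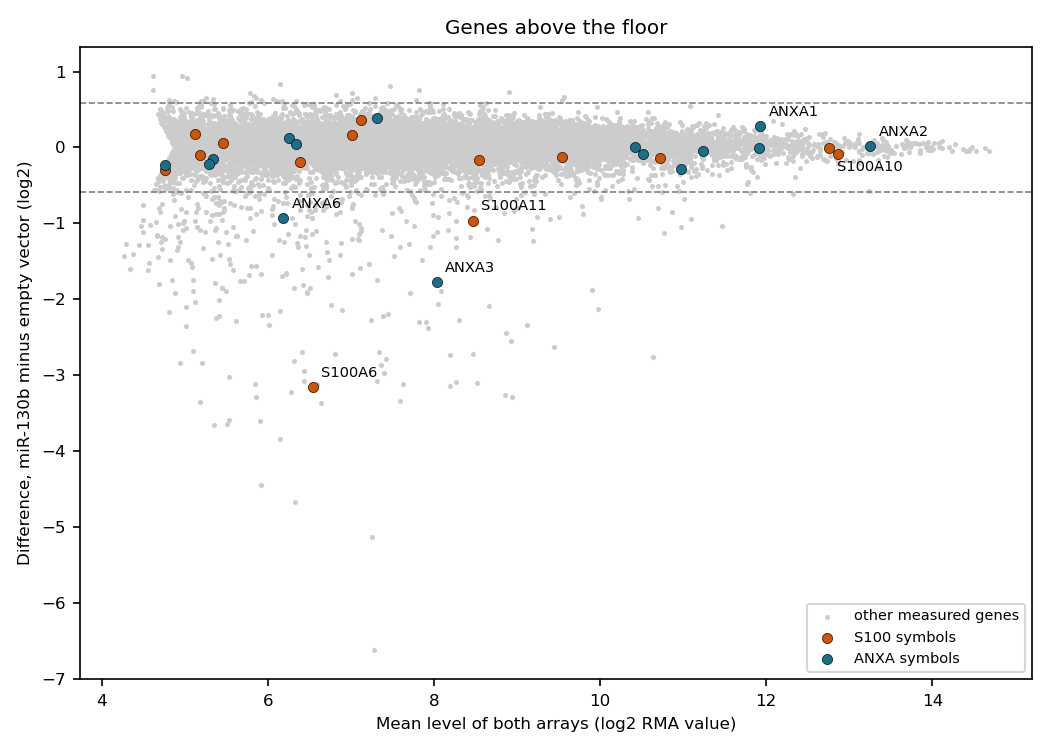
Difference, miR-130b minus empty vector, against the mean level of both arrays for the 13260 measured genes (grey), with S100 symbols in orange, ANXA symbols in blue and dashed lines at 1.5-fold. S100A6, ANXA3, S100A11 and ANXA6 lie below the lower line, and the bright S100A10 and ANXA2 lie at 0.

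The S100A genes lie on chromosome 1 in the RefSeq annotation of GRCh38.p14, S100A10 and S100A11 apart from the others. Of 16 S100A genes there, 12 were measured and 2 of these, S100A11 and S100A6, were at least 1.5-fold lower. S100A10 is the neighbour of S100A11 among the S100A genes, and it differed by -0.01 beside -0.96. S100A6 is followed by S100A5, S100A4, S100A3 and S100A2, which differed by -0.29, -0.19, -0.09 and 0.06 beside -3.16. In empty vector cells these neighbours stood at 4.91, 6.49, 5.24 and 5.43, and the lowest value on the miR-130b array was 2.79. S100A5, S100A3 and S100A2 were therefore too dim to show a difference as large as that of S100A6. For S100A4 this cannot be decided, because the background of its own probe set is not known.

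**Figure D5:**
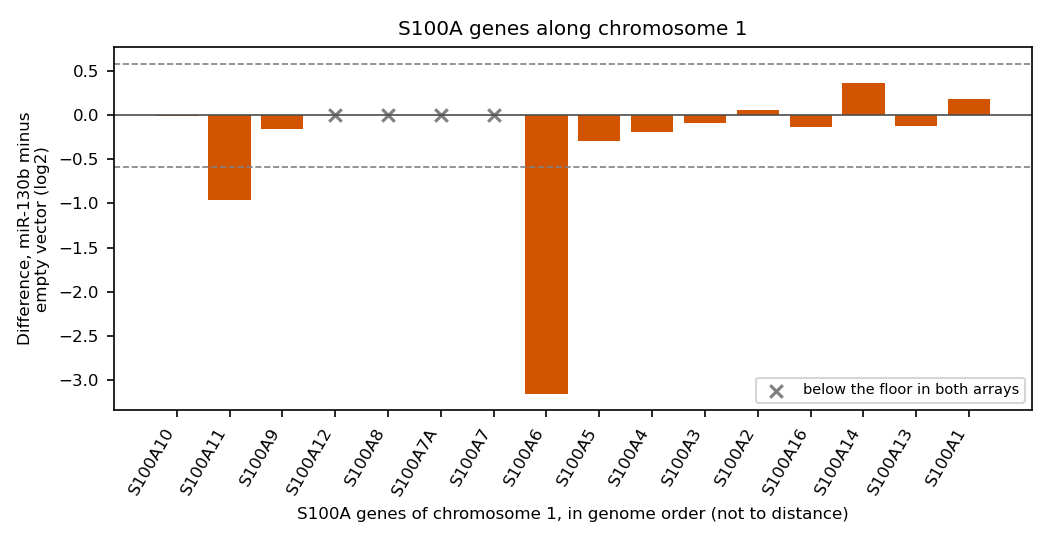
Log2 difference, miR-130b minus empty vector, of the 16 S100A genes in their order along chromosome 1, with crosses for the 4 genes below the floor and dashed lines at 1.5-fold. S100A6 and S100A11 pass the lower line, and S100A10, S100A9 and S100A5 beside them do not.

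Other genes of calcium signalling and of the S100 and annexin complexes were counted from lists. Of 31 measured binding partners and receptors, 2 were at least 1.5-fold lower and 0 higher, with a median difference of -0.11, where 2.68% of all measured genes were lower, 0.294% higher and the median was 0.03. MYH9, the non-muscle myosin heavy chain bound by S100A4, differed by -0.79 in its only measured probe set. AHNAK, the large scaffold bound by the S100A10 and ANXA2 complex, stood at 7.76 in miR-130b cells and at 8.41 in empty vector cells, a difference of -0.64, while its 2 dimmer probe sets differed by 0.09 and 0.08. RAB11FIP3 had the next largest difference, -0.37, and 0.19 in its dimmer probe set. That dimmer probe set was above the floor only in miR-130b cells, which fixes the sign of its difference.

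None of 35 other EF-hand genes passed 1.5-fold in either direction, with a median of 0.10 and with NCS1 at -0.39, CAPN1 at 0.37 and CAPNS1 at -0.36 as the largest differences. The dimmer CAPN1 probe set differed by -0.17, and the 4 dimmer NCS1 probe sets by -0.35 to 0.11. The NCS1 probe set at -0.35 was above the floor only in empty vector cells, which fixes its sign. None of 21 other genes for calcium-dependent membrane binding passed 1.5-fold, with a median of 0.06. SYT1, SYT3 and CPNE3 had the largest differences there, at -0.31, 0.27 and 0.27. SYT3 was above the floor only in miR-130b cells, at 5.05 against 4.78 in empty vector cells, which fixes its sign. With so few genes past 1.5-fold among all measured genes, counts of 0 in lists of this size lie near that background of 2.68% lower and 0.294% higher. Of the S100-fused genes of skin, 1 of 5 on the array was measured, CRNN, at 4.94 in miR-130b cells and 5.10 in empty vector cells.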

How the data were processed

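Total RNA of each condition was hybridised to 1 array after biotin labelling, and groups came from the sample titles. The authors deposited log2 levels made with RMA, per the submitters' processing notes. The sources used here give neither its version nor its settings, nor which arrays were normalised together. Symbols came from GEO's platform annotation, and all 38 member symbols were found in RefSeq by gene identifier. From the deposited log2 values each probe set's difference, miR-130b minus empty vector, was taken. With 1 array per condition, no test, SE or p-value was computed, so counts use rules of size (1.5-fold, 0.58 on the log2 scale) and the number of arrays limits the precision.

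Every member gene above the floor was named, with each probe set of the partner genes, and for the other lists the genes beyond 1.5-fold or the 3 largest differences. The members and lists were chosen with earlier results of these data known. The genes with printed upstream windows and the 6 motifs were chosen after the values were seen. The alternatives tried were a floor at the 75th percentile (6.98) or none, averaging a gene's measured probe sets, leaving out _x_at and _s_at probe sets, loess centring with a span of 0.3, and narrower member lists. The computation was tested on simulated data. Python 3.11.15, numpy 2.4.6, pandas 2.3.3, statsmodels 0.14.6 and matplotlib 3.10.9 were used.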

Additional observations from a re-analysis of the deposited data

Results flagged for a closer look

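The dimmer ANXA1 probe set, which does not represent its gene in the counts above, was higher with miR-130b than with the empty vector by 0.86 on the log2 scale. It was the only measured member probe set at least 1.5-fold higher. It stood below the alternative floor of 6.98 in both arrays, at 6.02 with miR-130b and at 5.16 with the empty vector. No replicate exists to check it.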

How the results depend on the processing

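When a gene's measured probe sets were averaged, S100A10 differed by 0.21, ANXA1 by 0.57, S100A10 minus ANXA2 by 0.21 and S100A11 minus ANXA1 by -1.53. These values include the dimmer probe sets of S100A10 and ANXA1. The count of ANXA genes at least 1.5-fold lower was 1 with the floor at the 75th percentile, which removes ANXA6, and 1 without _x_at and _s_at probe sets, which also removes ANXA6. ANXA2 has no measured value without those suffixes. The S100 median minus the ANXA median turned its sign with no floor (0.0037) and without those suffixes (0.03), from -0.06. The other family and partner values moved by less than the technical SD of a single gene, or by less than 1.5 times for counts. Of the remaining members, ANXA9 moved from 0.38 to 0.15 when probe sets were averaged. Without those suffixes ANXA11 moved from -0.09 to 0.14 and ANXA7 from 0.0056 to 0.26. No difference beyond 1.5-fold turned its sign. Leaving out S100PBP, the pseudogenes and the ANXA2R genes, chosen after seeing the data, gave medians of -0.12 and -0.01. No replicate can be left out and no paired analysis was possible because each condition has 1 array.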
